A study of Mus musculus with 6 samples.

Results

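Synaptotagmin, SNARE and synaptic vesicle genes were examined in Neuro2a cells, a mouse neuroblastoma line that grows as a neuron-like culture. The members were chosen by gene symbol alone: synaptotagmins (Syt), syntaxins (Stx), vesicle-associated membrane proteins (Vamp), 5 Snap genes (Snap23, Snap25, Snap29, Snap47, Snap91), synapsins (Syn), SV2 proteins (Sv2), syntaxin-binding proteins (Stxbp), complexins (Cplx), and Syp, Sypl, Napa, Napb, Nsf and Rab3a. This gave 66 of the 24421 genes in the count table. All 6 samples are wild-type Neuro2a cells that received an adenovirus (ADV) and were harvested 48 h later. In the shCtrl group (n = 3) the virus was ADV-shCtrl, the control short hairpin RNA. In the shFam172a group (n = 3) it was ADV-shFam172a, a hairpin against Fam172a. Both groups carried virus and hairpin, no sample without virus was analysed here, and the labels name 1 hairpin per group. The submitters ask how Fam172a acts in diet-induced obesity, and the series title concerns histone lactylation in pro-opiomelanocortin neurons. The line measured is a tumour line, so these values are not from such neurons.

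Vesicles fuse with a target membrane when SNARE proteins on both sides zip into a bundle that pulls the membranes together. At the synapse the bundle is made of VAMP2 on the vesicle and of syntaxin 1 and SNAP-25 on the plasma membrane, synaptotagmins sense the calcium signal, Munc18 proteins (Stxbp genes) and complexins steer assembly, and the ATPase NSF with its SNAP adaptors takes spent bundles apart. Other members of the same families serve the endoplasmic reticulum, the Golgi apparatus, endosomes and lysosomes in every cell.

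The libraries held 11250312 to 12820531 gene counts in shCtrl and 21690467 to 23409319 in shFam172a, so the deeper libraries are those of shFam172a. With counts thinned to the smallest library, 17 of the 21 called members described here kept their call. Fam172a stood at 18.6, 19.3 and 19.5 CPM (a gene's counts relative to the TMM-scaled total of its library) in shCtrl and at 9.22, 8.28 and 9.22 in shFam172a, 46.5% of the control level (log2 fold change -1.10 ± 0.092 SE, edgeR adjusted p = 2.4e-12). The summed CPM of 15 sympathoadrenal and neuronal marker genes of the line was 2370 to 2390 in shCtrl and 2460 to 2480 in shFam172a. Of these, 14 were tested, 7 were higher and 1 was lower (57.1% called, where 36.1% of all genes tested were called), and the part of this in the results was not tested. Markers of other cell types were low and 0 of their 9 tested genes were called. Their summed CPM was 11.5 to 12.9 in shCtrl and 9.89 to 12.2 in shFam172a for 8 fibroblast genes, and 0.0886 to 0.343 and 0.18 to 0.3 for 7 macrophage genes, with Ptprc and Itgam at 0. It was 26.9 to 29.1 and 28.2 to 33.4 for 9 astrocyte and oligodendrocyte genes, with Aqp4, Mag and Olig2 at 0, and 14.7 to 16.7 and 15.7 to 17.0 for 7 endothelial and epithelial genes, with Krt5 at 0. A lower CPM in such a culture can reflect less RNA per cell or fewer cells that make it, and these cannot be told apart.

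Most of the release machinery was expressed, and its members differed by small amounts in both directions. Of the 66 genes, 53 had enough counts to be tested, and at an adjusted p under 0.05 (edgeR's quasi-likelihood test) 13 were higher in shFam172a, 8 were lower and 32 did not pass. That is 39.6% called, where 36.1% of all 12820 tested genes were called, 17.5% as higher and 18.6% as lower. The share is near the background and is not a result about these genes as a group. Their median log2 fold change was 0.02 and their median absolute log2 fold change 0.13, against 0.00 and 0.13 over all genes tested. CPM of the 2 groups did not overlap for 23 of the 53 (43.4%), where this held for 46.0% of all genes tested. At least a 1.5-fold difference was called for 1 gene, Vamp1, and a 2-fold one for 0, while 2.73% and 0.881% of all genes tested were called at these sizes. The plot of fold changes shows the genes by role.

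**Figure D1:**
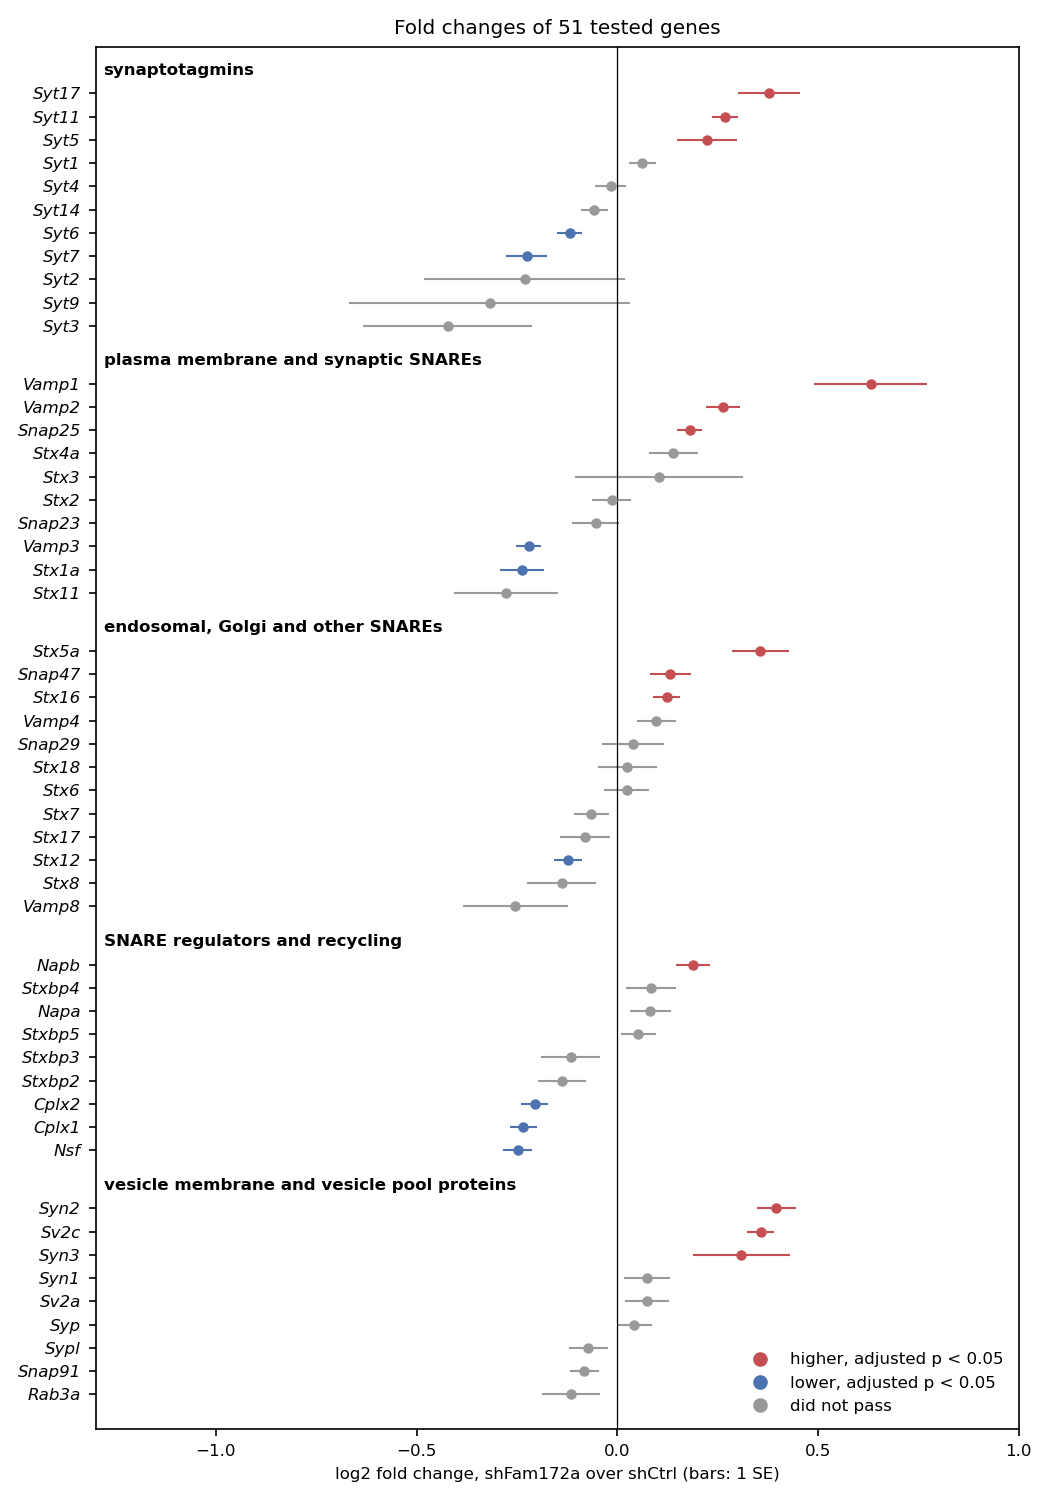
Log2 fold change of 51 of the 53 tested genes, shFam172a over shCtrl (x axis), with bars of 1 SE, grouped by role; red and blue mark genes called higher and lower at an adjusted p under 0.05, grey those that did not pass. In 4 of the 5 groups red and blue genes stand together, and in the group of vesicle membrane and pool proteins 3 genes are red and 0 blue.

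Promoter sequence is shown for 4 called genes, 2 from each direction, because genes of 1 machine moved apart here and their upstream letters can be compared. They are the 2 higher and the 2 lower genes with the smallest adjusted p among those with 1 listed start site whose window, read from its far end, runs for at least 150 bases before the first annotated exon base. The sequences are from RefSeq on GRCm38.p6, 5′ to 3′ on the gene's strand, and cover up to 250 bases before the start; that of Vamp1 stops 31 bases before it, where an annotated exon begins. Capitals mark a match to a searched motif. Sv2c (chr13:96132578-96132827, minus strand) and Vamp1 (chr6:125215331-125215550, plus strand) were higher in shFam172a, and Nsf (chr11:103954057-103954306, minus strand) and Stx1a (chr5:135023232-135023481, plus strand) were lower.
Sv2c: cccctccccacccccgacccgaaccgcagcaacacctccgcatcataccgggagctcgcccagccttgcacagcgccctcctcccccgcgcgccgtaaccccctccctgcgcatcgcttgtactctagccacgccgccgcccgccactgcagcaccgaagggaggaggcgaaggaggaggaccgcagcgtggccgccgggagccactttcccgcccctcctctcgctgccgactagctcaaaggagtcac
Vamp1: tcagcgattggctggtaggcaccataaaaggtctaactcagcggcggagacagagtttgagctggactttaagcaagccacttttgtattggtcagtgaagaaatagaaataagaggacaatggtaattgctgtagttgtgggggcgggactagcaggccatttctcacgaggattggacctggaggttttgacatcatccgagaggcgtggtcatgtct
Nsf: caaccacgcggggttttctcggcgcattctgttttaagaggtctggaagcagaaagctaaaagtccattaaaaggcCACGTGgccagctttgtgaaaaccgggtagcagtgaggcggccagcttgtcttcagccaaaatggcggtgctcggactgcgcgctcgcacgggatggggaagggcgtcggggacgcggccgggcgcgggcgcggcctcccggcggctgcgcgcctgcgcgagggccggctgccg
Stx1a: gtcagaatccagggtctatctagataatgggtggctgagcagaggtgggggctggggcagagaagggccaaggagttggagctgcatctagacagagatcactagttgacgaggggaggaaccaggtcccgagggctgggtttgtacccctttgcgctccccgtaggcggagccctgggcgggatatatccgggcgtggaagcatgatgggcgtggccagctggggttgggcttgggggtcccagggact
The G and C content of these stretches was 70.8% in Sv2c, 48.6% in Vamp1, 66.0% in Nsf and 62.0% in Stx1a, with 26, 7, 30 and 9 CG dinucleotides. Of the 4 stretches, that of Nsf alone holds any of the 6 motifs given next: the palindrome CACGTG, 174 bases before the start, and within it ACGTG on each strand.

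Across the family, RefSeq windows of 250 bases were found for 52 of the 66 genes, 69 windows in all since some genes have several start sites. Each motif was searched on both strands. ACGTG, the core of the site bound by hypoxia-inducible factors, was in 12 of the 69 windows (17.4%) and in 16.6% of all 32851 RefSeq windows of this length. Counted by gene, with a match in any window, ACGTG was in 0 of the 8 higher genes with a window. It was in 3 of the 6 lower ones, Cplx1, Nsf and Syt6. It was also in 5 of 29 that did not pass and in 2 of 9 below the count filter. The share over all windows is per window, so these few genes have no like background here. CACGTG, the E-box, contains ACGTG and was in 14.5% of the family's windows and in 6.02% of all windows. TTCAGCACC, the left part of the RE1 site of the neuronal repressor REST, was found in 1 of the 69 windows, that of Syn1, and in 0.301% of all windows. TGACGTCA, the cAMP response element, was found in the Syn1 and Stxbp3 windows, 2.90% against 1.55% of all. TATAAA was in 5.80% of the family's windows and in 12.4% of all, and GGACAGC, the right part of RE1, in 7.25% and 5.28%. The windows of tested genes held a median of 62.0% G and C and 16 CG dinucleotides, those of genes below the count filter 54.6% and 7.5, and all windows 52.4% and 6. Some genes have several windows, and in a few genes these overlap, so these shares describe the letters and nothing more.

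Synaptotagmins are membrane proteins with paired C2 domains, several of which bind calcium. Of 17 genes, 11 were tested, and 3 were higher, 2 lower and 6 did not pass (45.5% called, where 36.1% of all genes tested were called). Syt11, a form that does not bind calcium and acts in endocytosis and membrane traffic, had 176, 181 and 181 CPM in shCtrl and 210, 218 and 220 in shFam172a. Every shFam172a library was above every shCtrl library, with a log2 fold change of 0.27 ± 0.032 (adjusted p = 1.2e-08). Syt17, a form of the Golgi apparatus and early endosomes, had 17.8, 15.8 and 16.2 CPM against 21.2, 21.3 and 22.3, again without overlap, at 0.38 ± 0.078 (adjusted p = 1.9e-04). Syt5, a calcium sensor, was the third that rose, at 0.22 ± 0.075 (adjusted p = 0.018). The DESeq2 test put Syt5 at an adjusted p of 0.084, and its call was lost without shCtrl replicate 2 (adjusted p = 0.10), without shCtrl replicate 3 (adjusted p = 0.075), without shFam172a replicate 1 (adjusted p = 0.051) and after thinning to equal depth (adjusted p = 0.13).

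Syt7 and Syt6 were lower in shFam172a. Syt7, a high-affinity calcium sensor of slow release and vesicle refilling, fell (log2 fold change -0.23 ± 0.051, adjusted p = 5.1e-04). Its CPM was 53.3, 58.2 and 57.3 in shCtrl and 46.2, 50.1 and 48.0 in shFam172a, and the groups did not overlap. Syt6 was at 228, 227 and 227 CPM in shCtrl and 203, 211 and 214 in shFam172a (-0.12 ± 0.031, adjusted p = 0.0021), without overlap. Syt1, the fast calcium sensor of synaptic release, did not pass. Its CPM was 172, 177 and 179 in shCtrl and 180, 194 and 177 in shFam172a, overlapping groups, at 0.06 ± 0.034 (adjusted p = 0.16). The other tested members that did not pass were Syt2, Syt3, Syt4, Syt9 and Syt14, with log2 fold changes from -0.42 (Syt3) to -0.02 (Syt4). Syt3 did not overlap between groups at 2.80 ± 0.14 and 2.08 ± 0.332 CPM, and its SE was 0.21 (adjusted p = 0.12). Syt2 and Syt9, the other fast sensors, were low, at 1.87 ± 0.135 and 0.989 ± 0.393 CPM (SD, n = 3) in shCtrl. Syt8, Syt10, Syt12, Syt13, Syt15 and Syt16 had 0 to 3 counts in any library and were not tested.

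The SNAREs of the plasma membrane and of synaptic vesicles also held genes called in each direction. Of 13 genes, 11 were tested, 3 were higher and 2 lower (45.5% called, where 36.1% of all genes tested were called). Vamp2, the principal vesicle SNARE of synapses, had 66.5, 66.9 and 65.6 CPM in shCtrl and 77.9, 80.4 and 80.7 in shFam172a (0.26 ± 0.043, adjusted p = 5.7e-06). Its near relative Vamp1, used at the neuromuscular junction and in some brain regions, had 5.14, 4.44 and 5.23 CPM against 7.97, 7.81 and 7.10. That is a 1.55-fold rise (0.63 ± 0.14, adjusted p = 3.1e-04), from 57 to 60 counts in each shCtrl library to 158 to 182 in each shFam172a library. Vamp3, the cellubrevin of recycling endosomes in all cells, went the other way. It had 179, 177 and 174 CPM in shCtrl and 151, 152 and 152 in shFam172a (-0.22 ± 0.032, adjusted p = 7.3e-07). None of these 3 pairs of groups overlapped.

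Genes of both neuronal partners of VAMP2 on the plasma membrane changed, Snap25 upward and Stx1a downward. Of the tested genes in all roles, 13 share exon bases with another annotated gene, and partners present in the table are named beside the genes described by library. Syt6 (505 bases), Syt7 (384), Syp (875) and Syt4 (566) overlap opposite-strand genes that are not among the genes counted. Whether reads of those genes entered their counts was not tested. Snap25, the neuronal SNARE with a pair of helices, had 205, 201 and 211 CPM in shCtrl and 232, 235 and 232 in shFam172a (0.18 ± 0.031, adjusted p = 1.1e-05). Stx1a, a neuronal syntaxin, had 46.2, 49.9 and 50.3 CPM against 40.3, 40.0 and 44.0 (-0.24 ± 0.055, adjusted p = 6.7e-04). In neither gene did the groups overlap. Snap23, the SNAP-25 relative of non-neuronal cells, was at 35.9 ± 1.38 and 34.7 ± 0.900 CPM (-0.05 ± 0.058, adjusted p = 0.50). Stx2, Stx3, Stx4a and Stx11 did not pass either, with log2 fold changes from -0.28 (Stx11) to 0.14 (Stx4a). Stx19 and Vamp5 had at most 12 counts in any library and were not tested.

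**Figure D2:**
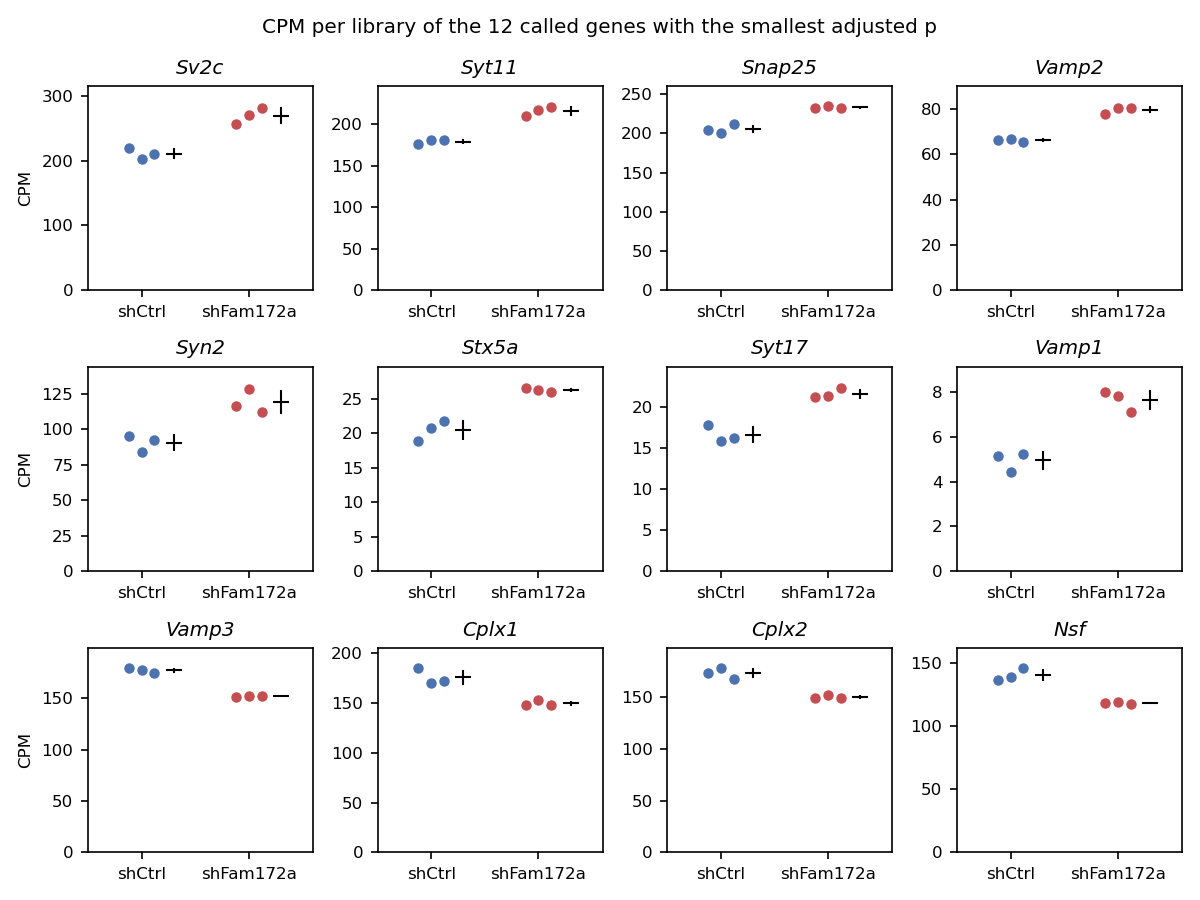
CPM (y axis, from 0) of the 12 called genes with the smallest adjusted p in each library (points), for shCtrl (blue) and shFam172a (red); the horizontal mark is the mean and the bar 1 SD (n = 3). In all 12 panels the red and blue points do not overlap, 8 genes being higher in shFam172a and Vamp3, Cplx1, Cplx2 and Nsf lower. Choosing genes by adjusted p favours such separation, which held for 46.0% of all genes tested.

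Among SNAREs of the Golgi apparatus, endosomes and autophagosomes, 12 of 13 were tested, 3 were higher, 1 was lower and 8 did not pass. That is 33.3% called, where 36.1% of all genes tested were called. Stx5a, the syntaxin of traffic between endoplasmic reticulum and Golgi, had 19.0, 20.8 and 21.8 CPM in shCtrl and 26.5, 26.3 and 26.0 in shFam172a, without overlap (0.36 ± 0.071, adjusted p = 1.2e-04). Stx16, a syntaxin of the trans-Golgi network, was at 0.12 ± 0.034 (adjusted p = 0.0041), a call that was lost when shCtrl replicate 1 was dropped (0.08, adjusted p = 0.073). Snap47 was at 0.13 ± 0.051 (adjusted p = 0.038), with overlapping groups. Its call was lost in 6 of 15 other settings, 4 of which left out a library: shCtrl replicate 1 (0.09, adjusted p = 0.23), shCtrl replicate 3 (adjusted p = 0.12), shFam172a replicate 1 (adjusted p = 0.074) or shFam172a replicate 3 (adjusted p = 0.061). Snap47 shares 307 bases of exon with Jmjd4 on the opposite strand, which was at 24.2 and 24.3 CPM. Whether the counting used strand was not given in the sources used here. Stx12, an endosomal syntaxin, was the member that fell (-0.12 ± 0.035, adjusted p = 0.0043), and after thinning to equal depth it was at -0.09 with adjusted p = 0.074. Stx6, Stx7, Stx8, Stx17, Stx18, Snap29, Vamp4 and Vamp8 did not pass, at log2 fold changes from -0.25 (Vamp8) to 0.10 (Vamp4). Vamp7 was at 0 in each of the 6 libraries and was not matched to the annotation. Whether reads could be assigned to Vamp7 was not tested, so no limit on its level is given.

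The proteins that assemble and recycle SNARE bundles gave 1 higher, 3 lower and 6 genes that did not pass, of 10 tested. That is 40.0% called, where 36.1% of all genes tested were called. Complexins, small proteins that clamp and then promote fusion, were lower in both expressed forms. Cplx1 had 185, 171 and 173 CPM in shCtrl and 148, 153 and 148 in shFam172a (-0.23 ± 0.034, adjusted p = 8.9e-07). Cplx2 had 173, 177 and 167 CPM against 149, 152 and 149 (-0.21 ± 0.033, adjusted p = 4.4e-06). The shFam172a values lay below all shCtrl values in both genes, by similar steps. Cplx3 and Cplx4, the complexins known from the retina, had at most 1 count in any library.

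Nsf, the ATPase that separates used SNAREs, had 137, 139 and 146 CPM in shCtrl and 119, 119 and 117 in shFam172a, without overlap (-0.25 ± 0.036, adjusted p = 6.0e-07). Its brain-enriched adaptor Napb rose from 79.7 ± 0.967 to 90.9 ± 3.58 CPM (0.19 ± 0.042, adjusted p = 4.3e-04). The widely expressed adaptor Napa had 49.7, 49.2 and 54.0 CPM in shCtrl and 55.7, 52.0 and 54.2 in shFam172a, overlapping groups (0.08 ± 0.051, adjusted p = 0.21). NSF and its adaptors act together, and in these libraries the ATPase gene fell while 1 adaptor gene rose. Stxbp2 and Stxbp3, Munc18 proteins of non-neuronal secretion, were at -0.14 (adjusted p = 0.070) and -0.12 (adjusted p = 0.23). Stxbp4 and Stxbp5, the latter known as tomosyn, an inhibitor of SNARE assembly, were at 0.08 and 0.05 and did not pass. Stxbp6, known as amisyn, was at 0 in all 6 libraries, where 3 counts in their pooled depth would be 0.0291 CPM, and the same holds for Cplx4 and Syt10.

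Proteins of the vesicle membrane and of the vesicle pool held 3 genes that rose, 0 that fell and 6 that did not pass, of 9 tested. That is 33.3% called with a median log2 fold change of 0.07. Of all genes tested, 36.1% were called, 17.5% as higher and 18.6% as lower. Sv2c, a vesicle glycoprotein of the SV2 transporter-like family, had the smallest adjusted p of all 53 genes. Its CPM was 219.5, 202 and 210 in shCtrl and 256, 271 and 281 in shFam172a (0.36 ± 0.034, adjusted p = 1.0e-10). Sv2a, the widespread form and the target of levetiracetam, was at 37.7, 38.9 and 41.3 CPM against 41.4, 41.3 and 41.2, overlapping groups that did not pass (0.07 ± 0.055, adjusted p = 0.32). Sv2b had at most 2 counts in any library.

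Synapsins tether vesicles to one another and to actin. Syn2 had 95.3, 84.0 and 92.8 CPM in shCtrl and 117, 128.5 and 112 in shFam172a, without overlap (0.40 ± 0.049, adjusted p = 2.9e-07). Syn2 shares 90 bases of exon with Timp4 on the opposite strand. Timp4 was low, at 0.829 and 2.64 CPM, and was itself higher in shFam172a (1.65 ± 0.28, adjusted p = 1.1e-05). Syn3 had 6.86, 7.87 and 9.04 CPM against 9.59, 9.95 and 9.85 (0.31 ± 0.12, adjusted p = 0.034), and it shares 1733 bases of exon with Timp3 on the opposite strand, which was at 4.18 and 4.29 CPM. The groups of Syn3 did not overlap, but its call was lost under DESeq2 (adjusted p = 0.13), after thinning to equal depth (adjusted p = 0.059), and without shCtrl replicate 1 (adjusted p = 0.20), shCtrl replicate 2 (adjusted p = 0.093), shFam172a replicate 2 (adjusted p = 0.068) or shFam172a replicate 3 (adjusted p = 0.057). Syn1, the most studied synapsin, had 55.5, 43.9 and 51.0 CPM in shCtrl and 51.2, 53.7 and 52.8 in shFam172a. Syn1 shares 9 bases of exon with Araf on the opposite strand (71.6 and 75.9 CPM, not passing). Its groups overlapped and it did not pass (0.07 ± 0.057, adjusted p = 0.34), with shCtrl replicate 2 the lowest of the 6 libraries. Without that library Syn1 was at -0.02 (adjusted p = 0.85), and without shCtrl replicate 1 at 0.15 (adjusted p = 0.043).

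Several classic vesicle markers did not pass. Syp, synaptophysin, had 65.9, 69.8 and 68.1 CPM in shCtrl and 70.9, 70.5 and 68.5 in shFam172a (0.04 ± 0.044, adjusted p = 0.49). Rab3a, the small GTPase of docked vesicles, shares 29 bases of exon with Mpv17l2 on the opposite strand, which was at 12.6 and 9.83 CPM and was lower. Rab3a had 25.3, 24.2 and 24.98 CPM against 23.5, 24.3 and 20.8 (-0.12 ± 0.073, adjusted p = 0.22). In both genes the groups overlapped. Snap91, the clathrin adaptor AP180 that only shares a name with SNAP-25, was at -0.08 (adjusted p = 0.074), and the synaptophysin-like Sypl at -0.07 (adjusted p = 0.26).

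Genes were also ordered by level per length, as CPM per kilobase of merged GENCODE exon. In shCtrl, Cplx1 was highest at 80.5 ± 3.47 (SD, n = 3), followed by Vamp3 at 61.2 ± 0.837, Stx12 at 45.6 ± 1.34, Stx16 at 43.8 ± 2.36 and Syt6 at 39.0 ± 0.141. Stx12 and Stx16 overlapped between libraries, and the other neighbours among these did not. Cplx2 (35.02) and Syt11 (34.4) were the next described and overlapped, and Snap25 (30.3) and Syt4 (29.7) followed, overlapping each other. This order depends in several places on the length used. On the length of the longest transcript, Vamp3 was at 83.4 and Cplx1 at 80.5. Syt6 (51.5) then stood above Stx12 (49.5) and Stx16 (44.9). Snap25 (42.15), Nsf (37.3) and Syt1 (36.5) stood above Syt11 (35.7) and Cplx2 (35.02). At the low end of the tested genes were Syn3 at 0.645, Stx3 at 0.499, Vamp1 at 0.486, Syt9 at 0.248 and Syt2 at 0.245. The differences between groups, at most 1.55-fold among called genes, are small beside this span, as the plot of levels shows.

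**Figure D3:**
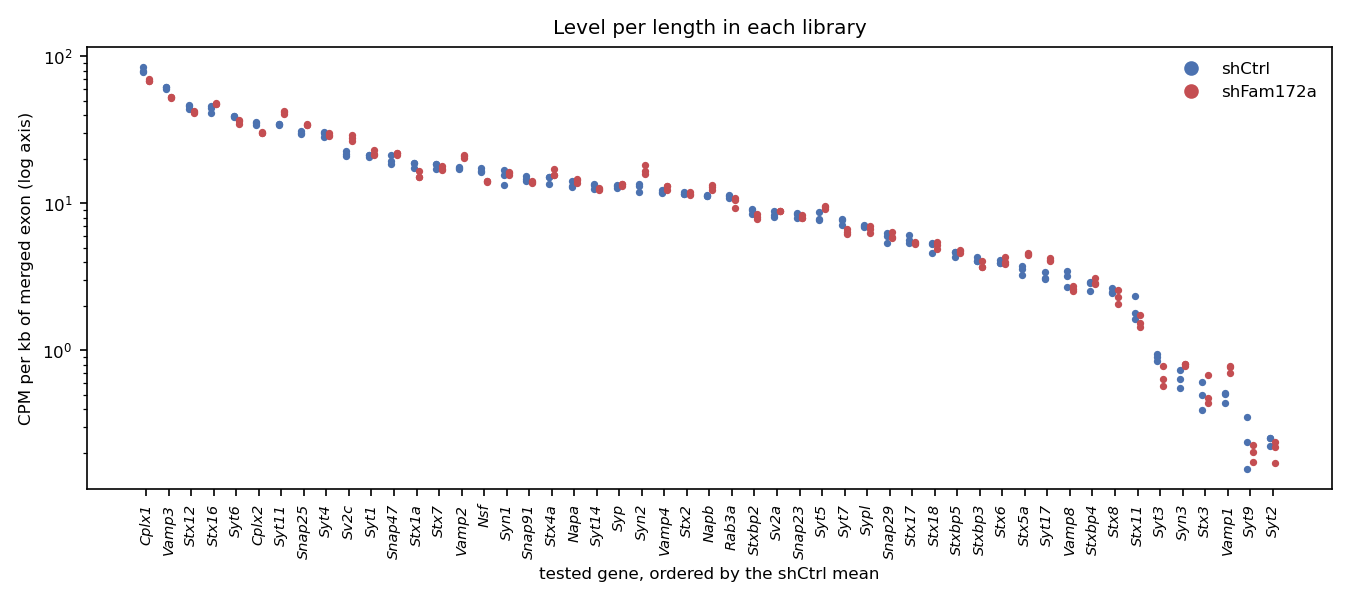
CPM per kilobase of merged exon (y axis, log scale) for 51 of the 53 tested genes, ordered by their shCtrl mean (x axis), with 1 point per library in blue (shCtrl) and red (shFam172a). Cplx1 and Vamp3 are at the top, Syt9 and Syt2 at the bottom, and the 2 colours stay close together along the whole order.

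Because relatives moved apart, the make-up of the families differed between groups. These shares describe the summed CPM per kilobase of a family and carry no test. The VAMP shares leave out Vamp7, which was not matched to the annotation. Vamp3 made up 64.8% ± 0.33 of the other VAMP genes in shCtrl and 58.5% ± 0.32 in shFam172a, while Vamp2 went from 18.4% ± 0.084 to 23.3% ± 0.39. With transcript length in place of merged exons these were 60.4% and 53.6% for Vamp3, and 21.8% and 27.1% for Vamp2. Among synaptotagmins, Syt6 was at 24.8% ± 0.23 and 22.1% ± 0.23, and Syt11 at 21.9% ± 0.46 and 25.5% ± 0.25, so that Syt11 held the larger share in shFam172a on merged exons. On transcript length Syt6 stayed the larger, at 26.1% and 23.4% against 18.1% and 21.2%.

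Syntaxins and synapsins shifted likewise. Among plasma membrane syntaxins, Stx1a went from 37.5% ± 0.41 to 32.8% ± 1.5 and Stx4a from 29.8% ± 0.73 to 33.9% ± 1.7, without overlap between libraries. On transcript length Stx4a was the larger in both groups, at 34.1% and 38.3% against 32.5% and 28.1% for Stx1a. Stx4a itself did not pass in the edgeR test (adjusted p = 0.073). Syn1 was at 52.8% ± 1.5 and 47.4% ± 1.5 of the synapsins and Syn2 at 44.9% ± 1.2 and 50.3% ± 1.6. On transcript length Syn2 was the larger in both groups, at 58.1% and 62.9%, so which synapsin leads depends on the length used and the shift between groups does not. Complexins kept their make-up, with Cplx1 at 69.7% ± 1.1 and 69.2% ± 0.19 and overlapping libraries. Their summed CPM per kilobase was 115.5 ± 3.62 in shCtrl and 98.8 ± 1.64 in shFam172a.

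**Figure D4:**
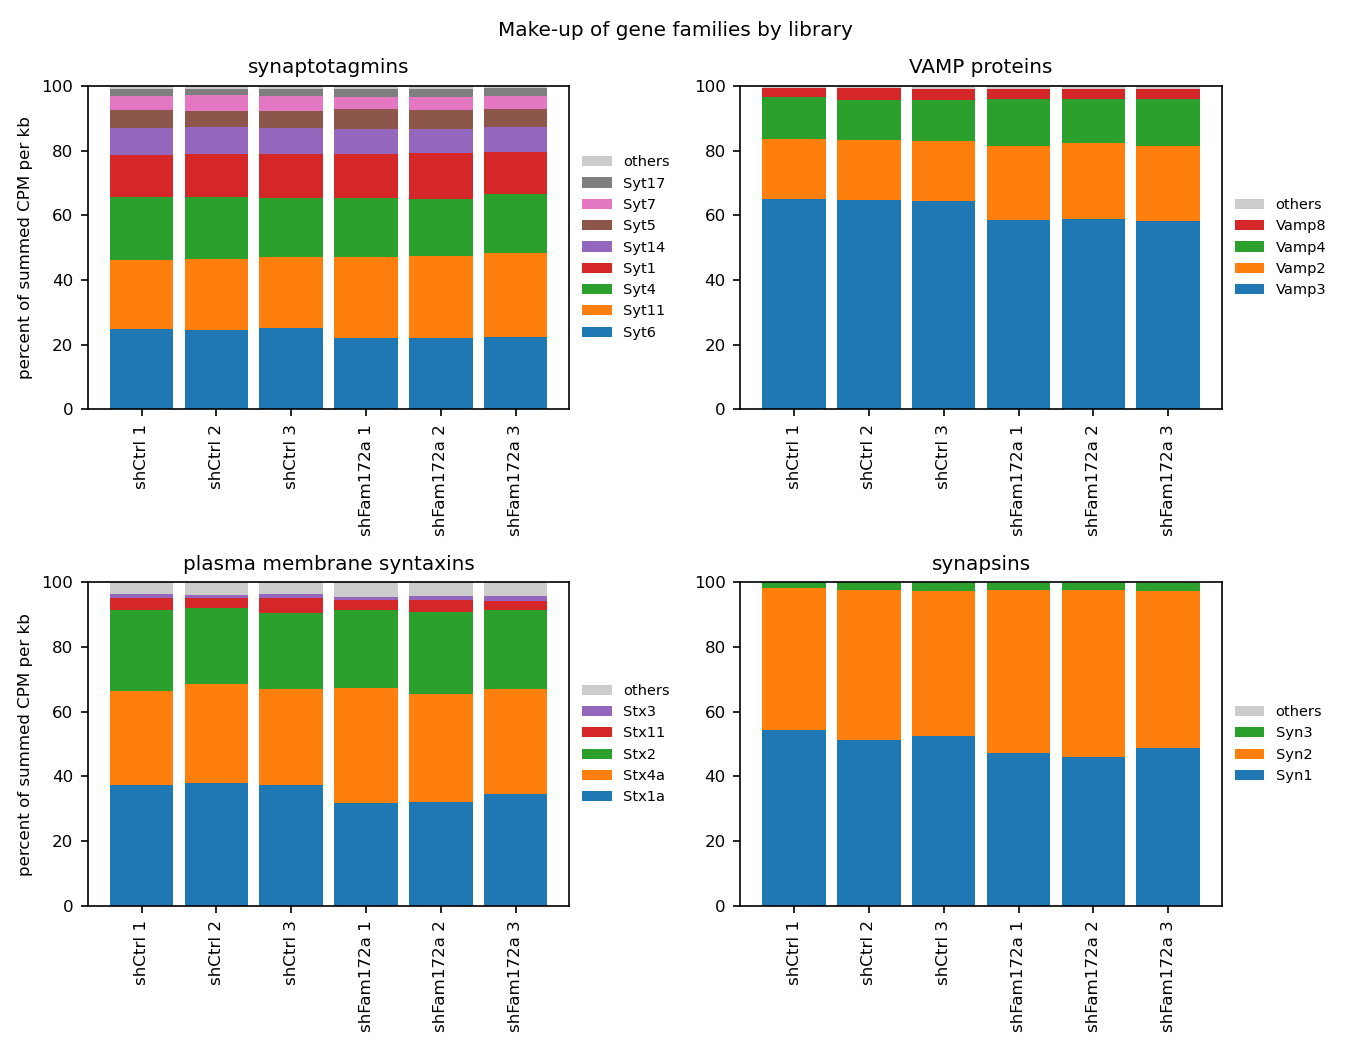
Percent of each family's summed CPM per kilobase of merged exon (y axis) in each of the 6 libraries (x axis), for synaptotagmins, VAMP proteins, plasma membrane syntaxins and synapsins; colours mark the genes in the legends, and grey the rest of the family. The Vamp2 segment widens from 18.4% to 23.3% and the Stx1a segment narrows from 37.5% to 32.8% from shCtrl to shFam172a. Vamp7 is not part of the VAMP panel.

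Other genes of release and trafficking came from a list of 115 genes with 92 tested, of which 23 were higher, 8 lower and 61 did not pass. That is 33.7% called with a median log2 fold change of 0.04, where 36.1% of all genes tested were called. The count of lower genes was 4 under DESeq2 and 4 without shFam172a replicate 3. The list headed active zone and priming is mixed. Beside genes that bring vesicles to the release site it holds Sytl, Esyt and Mctp genes, synucleins, Napg and Dnajc5. This list had 14 higher, 3 lower and 14 that did not pass of 31 tested (54.8% called, median 0.21), where 36.1% of all genes tested were called. These values describe the mixed list and not active zone genes alone. Unc13a, the Munc13 protein that opens syntaxin for assembly, was at 321, 311 and 316 CPM in shCtrl and at 442, 439 and 435 in shFam172a (0.47 ± 0.028, adjusted p = 1.3e-16). Sncb, beta-synuclein, had 41.3, 32.8 and 32.1 CPM against 104, 98.0 and 94.1 (1.48 ± 0.064, adjusted p = 2.1e-15). Dnajc5, a vesicle chaperone that keeps SNAP-25 folded, was at 0.55 ± 0.036 (adjusted p = 2.9e-15), and Rab3c, a relative of Rab3a, at 0.30 ± 0.033 (adjusted p = 2.0e-09). In each of these 4 genes, picked by smallest adjusted p, all shFam172a libraries were above all shCtrl libraries.

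The remaining lists held fewer calls. Of all genes tested, 36.1% were called, 17.5% as higher and 18.6% as lower, and no list was tested as a set. Of 17 further SNAREs and Sec1/Munc18 proteins of the endoplasmic reticulum, Golgi and endosomes, 2 were higher and 0 lower (11.8% called, median 0.01). These were Gosr2, a Golgi SNARE that can pair with syntaxin 5, at 0.32 ± 0.038 (adjusted p = 1.1e-08), and Bnip1, a SNARE of the endoplasmic reticulum, at 0.36 ± 0.068 (adjusted p = 5.6e-05). Of 17 tested vesicle membrane proteins and transporters, 4 were higher and 0 lower (23.5% called, median 0.04). Syngr1, synaptogyrin 1, was at 0.58 ± 0.042 (adjusted p = 5.9e-14), Slc18a1, a vesicular monoamine transporter, at 0.87 ± 0.20 from 2.21 ± 0.389 to 4.05 ± 0.479 CPM (adjusted p = 5.8e-04), and Vapb at 0.12 ± 0.034 (adjusted p = 0.0042). After removal of a length and GC trend Vapb was at 0.05 with adjusted p = 0.20. Of 27 tested endocytosis genes, 3 were higher and 5 lower (29.6% called, median 0.01). Ap2s1, a clathrin adaptor subunit, was at -0.20 ± 0.044 (adjusted p = 3.6e-04), the phosphatase Synj2 at -0.38 ± 0.084 (adjusted p = 4.0e-04), the dynamin Dnm3 at 0.34 ± 0.075 (adjusted p = 4.3e-04) and Eps15 at -0.13 ± 0.030 (adjusted p = 0.0010).

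**Figure D5:**
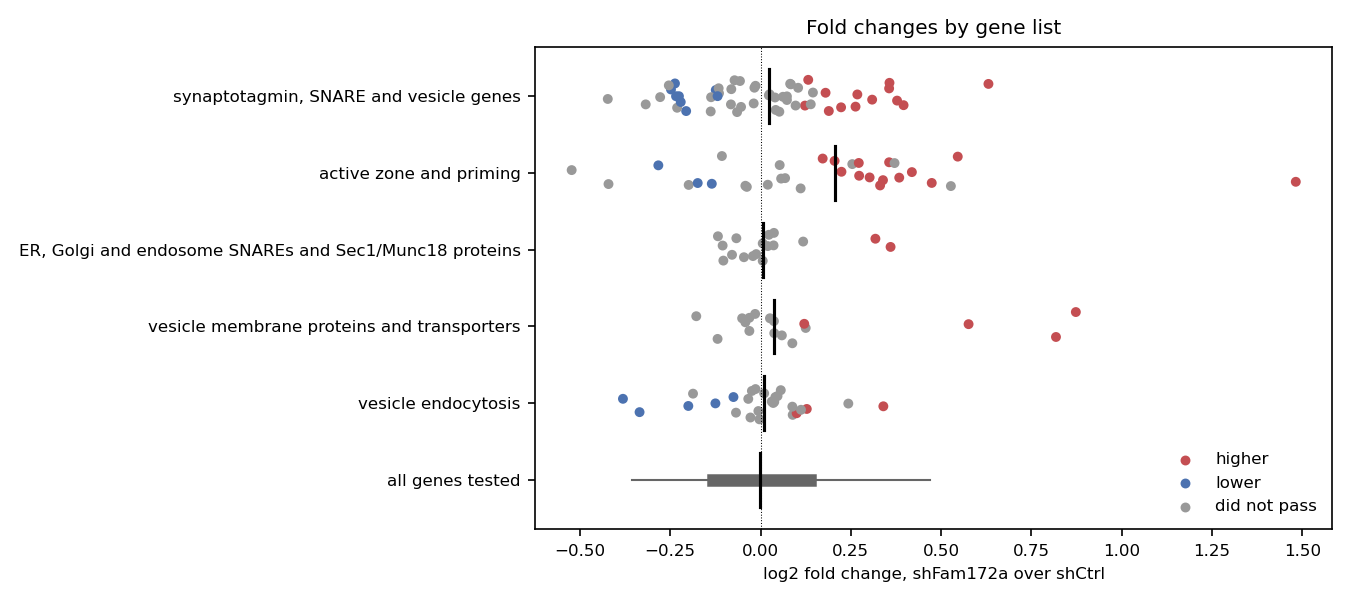
Log2 fold changes, shFam172a over shCtrl (x axis), of the tested synaptotagmin, SNARE and vesicle genes and of the 4 other lists (rows); points are genes, red higher, blue lower and grey not passing, placed at random heights, and black lines are medians. The bottom row gives all genes tested, with the median, the 25 to 75% range (thick) and the 5 to 95% range (thin, -0.36 to 0.47). The mixed list headed active zone and priming has the median farthest from 0, at 0.21.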

How the data were processed

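RNA was sequenced from 6 Neuro2a samples, 3 with ADV-shCtrl and 3 with ADV-shFam172a. The authors deposited raw read counts per gene symbol, not normalized; per the submitters' processing notes, HISAT2 2.0.5, HTSeq and the build mm10 were used, while the annotation and strand setting were not given in the sources used here. Single-sample tables held the same counts as the series table. The 5 counter rows that name no gene were left out; each took 0.722 to 17.9% of all rows of a library. Nothing in the labels says whether samples of a group came from separate cultures. The p-values set the difference between groups against the spread within groups, and that spread may be technical only.

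After filterByExpr and TMM scaling, genes were tested with edgeR's quasi-likelihood test (version 4.0.16, glmQLFit, robust, glmQLFTest, group only) in R 4.3.3, two-sided, with Benjamini-Hochberg adjustment over 12820 genes. The SE is the log2 fold change divided by the square root of F. The test was checked on simulated counts. Positions, lengths and exon overlaps came from GENCODE vM21 (GRCm38), which matched 65 of the 66 members by symbol. Named were Fam172a, called members, 12 core synaptic genes, and per pathway list the 4 called genes of smallest adjusted p with a mean CPM of at least 2. Per-library values went to called members with an absolute log2 fold change of at least 0.3, the 12 of smallest adjusted p and the core genes, and also to Syt6, Syt7, Unc13a and Sncb, added after their values were seen. A few genes are not reported here. Members and lists were chosen with earlier results of these data known. Alternatives were edgeR with other scalings and filters, DESeq2 1.42.0, limma-voom 3.58.1, a replicate block, left-out libraries, thinning to equal depth, and removal of a length and GC trend (mgcv 1.9.3). Levels by longest transcript were an alternative chosen after seeing the data. The limit for a count of 0 covers counting error only.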

Additional observations from a re-analysis of the deposited data

Results flagged for a closer look

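For 2 kinds of read pair outside the gene counts, the 3 shFam172a libraries all lay above the 3 shCtrl libraries. Pairs in no gene made up a mean of 17.4% of all rows in shFam172a (17.2 to 17.9%) and 16.5% in shCtrl (16.4 to 16.6%). Pairs with several alignments made up 10.3% (9.99 to 10.4%) and 9.64% (9.58 to 9.71%). Their part in the results for release genes was not tested.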

How the results depend on the processing

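The members' calls moved little. Across 15 other settings, 10 to 14 members were higher and 8 to 11 lower, and 17 to 21 of the 21 called members kept their call and direction. Over all genes, 1637 to 2486 were higher and 1770 to 2751 lower, and the median log2 fold change lay between -0.021 and 0.020. None of the 21 called members changed direction in these settings. Of the 21 called members, 16 kept their call in every setting, and the exceptions were Snap47, Stx12, Stx16, Syn3 and Syt5. Among described members that did not pass, Syn1 changed sign when 1 library was left out, ranging from -0.02 (without shCtrl replicate 2) to 0.15 (without shCtrl replicate 1). Of the other release and trafficking genes, 8 were lower in the main test, 4 under DESeq2, and 4 to 8 when 1 library was left out, the lowest without shFam172a replicate 3. With the replicate number as a block, 13 members were higher and 8 lower, and 2150 and 2318 of all genes. Deviations of same-numbered libraries correlated at -0.00544, -0.00376 and -0.00964 over 12820 genes. No pairing by number was seen in these values, but counting noise could mask one, and the labels do not state any. Of the tested genes, 99.3% had a length and GC value. Depth limits the low members, of which 13 had at most 12 counts in any library and were not tested, and 3 libraries per group limit the precision of all values.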
